A study of Nothobranchius furzeri with 15 samples.

Results

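Of the 1810 circular RNAs (circRNAs) counted in libraries of brain and of muscle from the African turquoise killifish, 142 held at least 10 circular reads summed over the 9 brain libraries and at least 10 summed over the 6 muscle libraries. These 142 are described here, side by side in the tissues. Of the rest, 497 circRNAs had 10 reads in brain but fewer in muscle, 150 in muscle but fewer in brain, and 1021 had fewer in each. Because the 142 were selected on the circular reads of both tissues, their circular abundance and circular share in brain against muscle are given as values, with no test. The choice summed circular reads over the ages and did not use the linear reads, and age changes and linear reads are tested. The age tests use the same circular reads, and a circRNA could reach 10 in a tissue through a single age. The last to enter were the circRNAs of trdmt1, a transfer RNA methyltransferase, with 10 reads in brain and 13 in muscle, of nedd4, a ubiquitin ligase, with 10 and 24, and of the clock gene per3, with 10 and 14. Just outside lay circRNAs of nav3 with 58 and 9 reads, mtmr14 with 27 and 9, and arhgap5 with 25 and 9. The lower of both tissue sums was exactly 10 for 17 of the 142, and exactly 9 for 11 circRNAs that were not included.

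CircRNAs are closed loops of RNA that form when a splice donor is joined backwards to an upstream acceptor, often around a few inner exons of a protein-coding gene. The loop and the linear messenger RNA come from the same precursor, so a host gene can give both. Having no free ends, loops resist exonucleases and can outlast the linear RNA, and they are known for high levels in nervous tissue, where cells divide little. In fly and mouse, circular reads have been found to gain on linear reads in ageing brain.

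All fish were of the strain GRZ-AD of Nothobranchius furzeri, a short-lived annual fish used to study vertebrate ageing, at 3.5, 8.5 or 14 weeks of age, with no other treatment or genotype named in the labels. Each age had 3 brain libraries and 2 muscle libraries of total RNA depleted of ribosomal RNA. The labels do not say whether libraries came from separate fish or from pools, and the p-values therefore cover only the variation among these libraries, part of which may be technical. Brain libraries held 2095 to 4400 circular and 80405 to 135698 linear reads, and muscle libraries 1343 to 4269 and 76515 to 122098. Linear reads are those counted at the positions of the circRNAs, and how they were defined is not given in the sources used here. Neuron marker genes, 4 of 12 with a circRNA in the table, took 3.59 to 4.80% of linear reads in brain and 0.00520 to 0.0288% in muscle. Muscle marker genes, 9 of 15 found and none at 0 in brain, took 29.2 to 33.7% in muscle. In brain, muscle markers took 1.74 to 2.46% in libraries 2 and 3 of 3.5 weeks and 0.126 to 0.335% in the other 7 libraries. The part of these reads in the results below was not tested, and leaving out both libraries leaves 1 brain library at 3.5 weeks.

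The 142 circRNAs held 9295 circular reads in brain and 7117 in muscle. They were 31.2 to 35.7% of the circular reads of a brain library and 47.0 to 55.3% of those of a muscle library. Only 26 of them had a read in each of the 15 libraries, 64 had one in all 9 brain libraries and 39 in all 6 muscle libraries. The median member had 35.5 reads in brain and 22 in muscle, so most values below carry wide counting error.

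The members came from 130 host genes on 19 chromosomes, with 3 circRNAs on scaffolds and 8 at positions with no annotated host. Of the hosts, 80 had a symbol in the deposited table, 34 took one from a RefSeq table, and 16 are known by identifier alone. Both ends lay in annotated exons for 101 members, or 71.1%, against 80.9% of all 1810 circRNAs. For 30 members, or 21.1%, 1 of the ends was listed as intergenic, against 9.28% of all. For 11 members both ends were. The circRNAs of flnc, eif3l and oxr1, described below, were among the members with an end outside annotated exons. The distance between the ends had a median of 3206 bp, against 5096.5 bp over all circRNAs, and ran from 376 bp in nsun4 to 134480 bp in oxr1. A host with no other circRNA in the table gave 66.4% of the members with a host, against 59.4% over all. These shares describe the choice and were not tested, since a circRNA with more reads had more chance to enter.

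The hosts put in a role group spread over housekeeping and regulatory roles, grouped after their names were seen. Another 51 members were in no such group, among them those of gulp1, lmnb2, oxr1, nisch, tbck and syn3. The groups were not counted over all 1810 circRNAs. Chromatin and transcription was the largest of the named groups, with 22 circRNAs from 21 hosts. Among them were nfix and sox6, which bind DNA, jmjd1c, of the histone demethylase family, cdc73, of the PAF1 elongation complex, and cdk19, a kinase of Mediator. Membrane traffic held 12, among them vps35, the core of retromer, exoc6b, of the exocyst, and rmc1, a partner of the Mon1-Ccz1 complex. RNA processing, modification and translation held 10, among them eif3l, a subunit of the initiation factor eIF3, nsun4, a methyltransferase of mitochondrial ribosomal RNA, and qkia, a Quaking RNA-binding protein known in mammals to promote circularization. Kinases, phosphatases and receptors held 9, ubiquitin and UFM1 ligation 8, mitochondrial proteins 8, and actin, microtubules and centrosome 7. Against 142 members among all 1810 circRNAs, a list of sarcomere and calcium-coupling genes had 2 among 27, ryr1b and atp2a2a, and a list of synapse and channel genes had 1 among 63, syn3. By list, translation and RNA modification had 2 among 7, RNA binding and splicing 1 among 5, and the ubiquitin system 3 among 9. The chromatin and transcription list had 3 among 22, cytoskeleton and motors 3 among 29, and small GTPase regulators 1 among 17. Kinases and phosphatases had 3 among 26, adhesion and matrix 2 among 36, and membrane traffic and lipid 3 among 22. Energy metabolism had 2 among 12 and known mammalian circRNA hosts 3 among 21. These counts were not tested. The Z-disc gene flnc is in the list of cytoskeleton and motors. Over the 13 gene lists used, each held 1 to 3 members, 116 members were in none, and no listed member was called in an age test.

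For 4 hosts, 2 circRNAs were members. The loops of rmc1 shared 1 end and differed by 5 bp at the other. The loops of nup50, a nucleoporin, shared 1 end, with starts 1995 bp apart. Those of jmjd1c and of pcca, the alpha subunit of propionyl-CoA carboxylase, lay apart. Members with a shared end are not independent measurements. A pair with no host on chromosome 17 also shared its start.

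Abundance is given as circular reads per 1000000 linear reads of the same library (CPM). The member with the highest abundance, by the geometric mean of both tissues, came from flnc, filamin C, an actin crosslinker of the muscle Z-disc. It lay on chromosome 2 from 1030947 to 1031338, in the files' own coordinates, whose genome build is not given in the sources used here. Its lowest, median and highest library stood at 53.0, 141 and 308 CPM in brain and at 1451, 2161 and 2883 CPM in muscle. All muscle libraries lay above all brain libraries, and the means differed 13.6-fold. In brain at 3.5 weeks, libraries 1, 2 and 3 of flnc stood at 86.1, 141 and 215 CPM, and the part of the muscle-marker reads in libraries 2 and 3 was not tested. As these are bulk samples, more cells of a type and more RNA per cell cannot be told apart.

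Among the 10 most abundant members, the libraries of brain and muscle overlapped for 7. The circRNA of eif3l on chromosome 6 had 303, 391 and 760 CPM as its lowest, median and highest brain library and 327, 538 and 631 CPM in muscle. That of nsun4 on chromosome 5 had 211, 280 and 520 CPM in brain and 83.2, 370 and 762 CPM in muscle. Their brain and muscle libraries overlapped widely. The loops of gulp1, an engulfment adaptor, of ubr3, a ubiquitin ligase, and of atp2a2a, a calcium pump of the endoplasmic reticulum, were likewise among them, with means of 205 ± 99.3, 249 ± 83.3 and 181 ± 81.3 CPM (SD, n = 9) in brain and 307 ± 289, 185 ± 65.6 and 239 ± 176 CPM (SD, n = 6) in muscle.

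Toward brain, the largest difference was that of oxr1, a gene known for protection against oxidative damage. Its circRNA spanned chromosome 3 from 29021173 to 29155652 and had 271, 442 and 553 CPM as lowest, median and highest brain library and 17.1, 60.6 and 134 CPM in muscle, 6.32 times higher on average in brain. LOC107387794, known by identifier alone, had 534, 663 and 792 CPM in brain and 52.0, 126 and 311 CPM in muscle. LOC107376304 had 276, 352 and 423 CPM in brain and 39.2, 82.7 and 169 CPM in muscle. In these 3 circRNAs every brain library lay above every muscle library, as it did for tmem259. The loop of ide, the insulin-degrading enzyme, was also lower in muscle, at a mean of 17.9 ± 28.7 CPM (SD, n = 6) against 81.4 ± 55.6 (SD, n = 9), but 4 muscle libraries had no read and the tissues overlapped.

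Toward muscle, besides flnc, the circRNA of si:ch211-200p22.4 on chromosome 1 had 0, 8.81 and 43.4 CPM as lowest, median and highest brain library and 62.4, 213 and 575 CPM in muscle. A circRNA with no annotated host on chromosome 6, from 38382734 to 38404700, had 0, 8.61 and 37.9 CPM in brain and 62.4, 247 and 585 CPM in muscle. The loop of ryr1b, the calcium release channel of muscle, had 10.9, 34.5 and 66.3 CPM in brain and 128, 392 and 786 CPM in muscle. That of filip1l, a protein related to a filamin partner, had 0, 24.9 and 59.0 CPM in brain and 198, 310 and 738 CPM in muscle. In all 4 the tissues did not overlap. The loop of mme, the membrane peptidase neprilysin, was 19.6 ± 21.9 CPM (SD, n = 9) in brain and 179 ± 142 CPM (SD, n = 6) in muscle, with overlap.

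Over the members, the libraries of the tissues did not overlap for 5 with muscle above, beside 2.79% of the 896 circRNAs with 10 reads in all, and for 4 with brain above, beside 7.48%. The choice used these reads, and nothing is read from the counts. The median log2 ratio of muscle over brain was 0.15, with 77 members higher in muscle and 65 higher in brain. This balance depended on the scaling. With trimmed-mean (TMM) factors of the linear reads the median was 1.66 and 128 members were higher in muscle, and per circular read of the library it was 0.40 with 90 higher in muscle. The 10 most read linear positions took 36.8 to 47.0% of linear reads in muscle libraries and 17.9 to 22.3% in brain libraries. The median was -0.22 when library 1 of muscle at 8.5 weeks was left out, and -0.00568 when library 3 was. The members whose CPM is given above kept their direction under all 3 scalings, though not their size, except ubr3, which turned over. No direction is read for eif3l, nsun4, gulp1 and atp2a2a, whose tissues overlapped. From linear totals to TMM the log2 ratio moved from -2.66 to -1.16 in oxr1, from -2.18 to -0.70 in LOC107387794, from -1.99 to -0.51 in LOC107376304, from 3.76 to 5.25 in flnc and from 4.53 to 5.96 in si:ch211-200p22.4. Across the 142, log2 abundance in brain and muscle had a Pearson correlation of 0.49 and a Spearman correlation of 0.50. This describes circRNAs that share their libraries and were chosen on these reads.

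**Figure D1:**
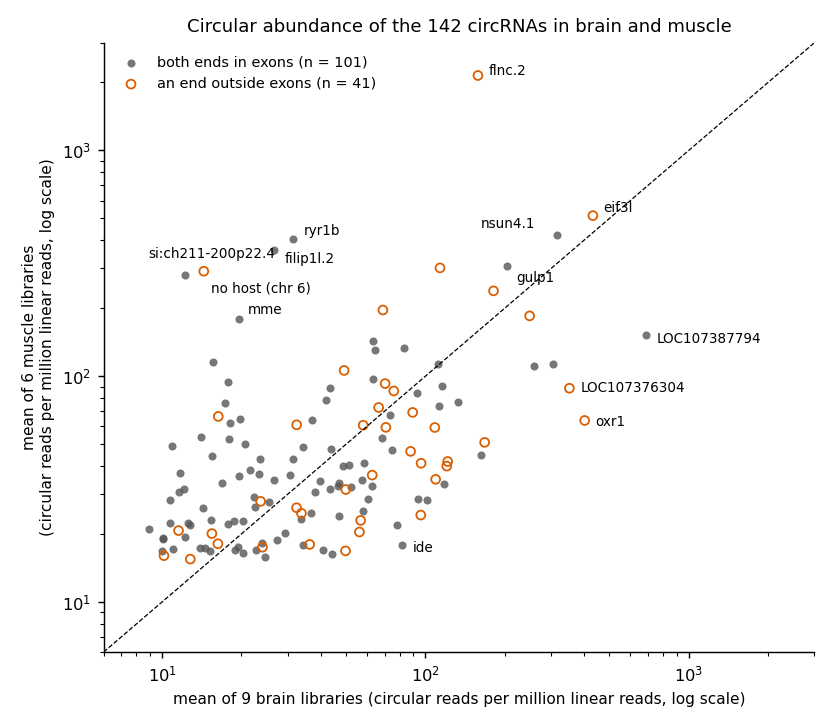
Mean circular abundance of each of the 142 circRNAs in the 9 brain libraries (x axis) and 6 muscle libraries (y axis), in CPM, on log axes with a dashed line of equality; filled points have both ends in exons and open points do not. The loop of flnc stands alone at 2147 CPM in muscle, and the loops of oxr1, LOC107376304 and LOC107387794 lie farthest below the line among the abundant ones.

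The circular share is the percentage of a position's reads, circular and linear together, that were circular, and needs no scaling between libraries. Its median over the members was 12.5% in brain and 23.3% in muscle, and it was higher in muscle for 100 of the 142. A circRNA with many linear reads can reach 10 circular reads at a low share, while few linear reads require a high share, so the choice can set such a balance. At all 3 ages the share was higher in muscle for 45 members and higher in brain for 10. The other 87 did not keep the same side at all 3 ages, ties at 0% included. The libraries of the tissues did not overlap for 7 members with muscle above, beside 2.9% of the 896 circRNAs, and for 0 with brain above, beside 5.8%. The 7 were those of si:ch211-200p22.4, rmc1, npl, nup50, trim2, prkcaa and a circRNA with no host on chromosome 17. In nup50 the gap was narrow, with a highest brain library of 13.25% and a lowest muscle library of 13.33%. The position of trim2 had no read in muscle library 1 of 3.5 weeks, so that library does not enter its comparison. Over all libraries of a tissue, exact binomial intervals at 95%, which cover counting error only, were apart for 45 members with muscle higher and for 3 with brain higher. No count over all circRNAs stands beside these. The choice used these reads and replicate libraries differed beyond counting error, so nothing is read from the counts of intervals.

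Shares ran together across the tissues, with a Pearson correlation of 0.72 on the log2 scale and a Spearman correlation of 0.72 over the 142 members. Abundance and linear reads did so less, the linear CPM with a Pearson correlation of 0.46. These are descriptions of circRNAs that share libraries and depth. The choice used the circular reads of both tissues and can set these correlations and their order. Members with both ends in exons had median shares of 8.81% in brain and 18.1% in muscle, and the 41 with an end outside exons 39.4% and 39.3%. Within those 2 classes the Pearson correlation of the log2 share was 0.63 and 0.74. The loops of eif3l, flnc and oxr1 belonged to the class with an end outside exons. The share passed 50% in brain for 11 members, in muscle for 15 and in both for 10. LOC107387794 led in both, at 82.3% (interval 79.4 to 84.8%) in brain and 77.0% (68.6 to 84.2%) in muscle. The loop of nsun4 stood at 64.2% and 60.1%, that of eif3l at 62.7% and 60.5%, that of cox19, which helps assemble cytochrome c oxidase, at 60.7% and 59.3%, and that of gulp1 at 51.4% and 59.2%. At the other end, qkia had the lowest share of all in both tissues, at 0.702% (0.429 to 1.08%) in brain and 1.43% (0.739 to 2.48%) in muscle, with 2831 and 829 linear reads.

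**Figure D2:**
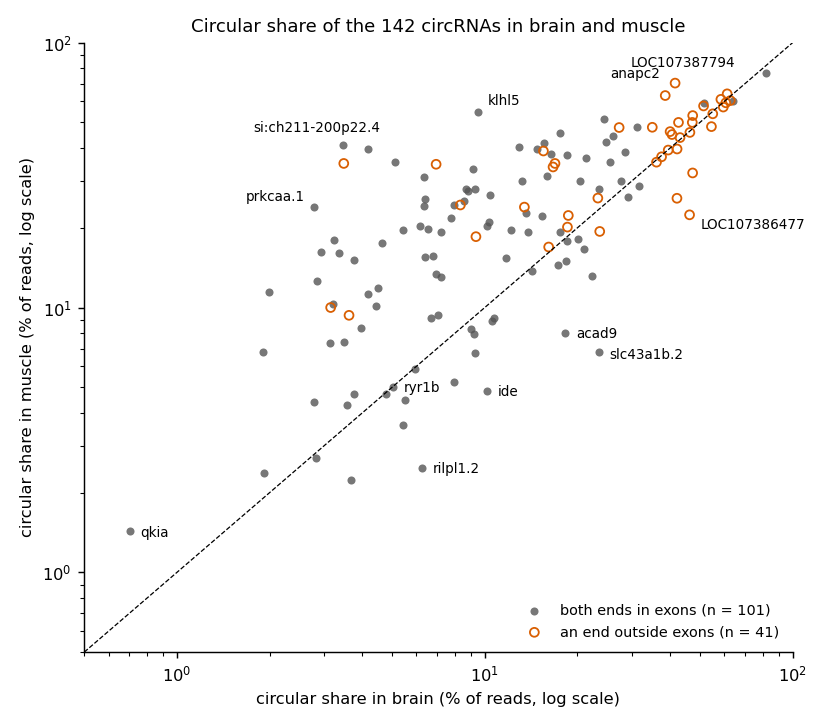
Circular share of each of the 142 circRNAs over all brain libraries (x axis) and all muscle libraries (y axis), in percent of the reads at its position, on log axes with a dashed line of equality; filled points have both ends in exons and open points do not. Most points, 100 of 142, lie above the line, and the circRNAs with an end outside exons gather at the upper right, with medians of 39.4% and 39.3%.

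The 8 members with the largest ratio of shares toward muscle were led by si:ch211-200p22.4. Its lowest, median and highest library stood at 0, 2.70 and 11.8% in brain and at 25.6, 36.3 and 47.5% in muscle. Over all libraries its share was 3.47% in brain and 41.1% in muscle, with no overlap at any library. The loop of prkcaa, a protein kinase C, had 0, 1.32 and 8.14% in brain and 10.5, 25.1 and 29.1% in muscle, again without overlap. In the other 6, muscle libraries at 0% overlapped brain, except in the circRNA with no host on chromosome 17, at 6.95% in brain and 34.7% in muscle. The loop of klhl5, a kelch-like protein, had 12 circular and 10 linear reads in muscle, a share of 54.5% (32.2 to 75.6%) against 9.53% in brain. Of the 12, 11 came from library 3 of 3.5 weeks, and the other muscle libraries had 1 circular read of 10. That of syn3, a synapsin, had 14 and 26 reads in muscle, 35.0% against 3.48%. Of its 14, 11 came from library 1 of 8.5 weeks, and without it the share was 18.8%. Those of adgrl2, a latrophilin, and epha4b, an ephrin receptor, stood at 39.6% against 4.17% and at 35.6% against 5.10%, and that of cdk5rap2, a centrosomal protein, at 31.0% against 6.33%. In brain, the share of cdk5rap2 was 3.73% without library 1 of 14 weeks. That of the chromosome 17 circRNA was 4.55% in brain without library 3 of 3.5 weeks. Of the 18 brain circular reads of adgrl2, 9 came from library 2 of 14 weeks. In muscle, the share without library 3 of 8.5 weeks was 27.5% for adgrl2 and 25.6% for cdk5rap2. Without muscle library 3 of 3.5 weeks that of epha4b was 27.3%.

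Toward brain the ratios were smaller. The loop of slc43a1b, an amino acid transporter, had 15 circular and 49 linear reads in brain, 23.4% (13.8 to 35.7%), and 35 and 481 reads in muscle, 6.78% (4.77 to 9.31%). LOC107386477 stood at 46.3% in brain and 22.4% in muscle, acad9, an assembly factor of respiratory complex I, at 18.3% and 8.02%, and ide at 10.1% and 4.84%. Without muscle library 1 of 8.5 weeks the muscle shares were lower still, at 4.04% for slc43a1b, 4.63% for acad9, 2.09% for ide and 8.33% for LOC107388356. Leaving out a library of either tissue could also narrow the gap. The highest muscle share so reached was 17.2% for LOC107388356, 8.41% for slc43a1b and 5.77% for ide, all without library 3 of 3.5 weeks. For acad9 it was 9.43% without library 3 of 8.5 weeks, and for wdr18 37.3% without library 1 of 8.5 weeks. The lowest brain share so reached was 17.1% for slc43a1b, without library 2 of 14 weeks, and 18.0% for LOC107388356, without library 3 of 8.5 weeks. Without brain library 1 of 8.5 weeks it was 17.1% for acad9 and 8.57% for ide. The loops of rilpl1, LOC107388356 and wdr18 and the circRNA with no host on chromosome 6 completed the 8, and the libraries of the tissues overlapped in each. Over all libraries of a tissue, the closest shares were those of ryr1b, pkn2, a protein kinase, mcu, the mitochondrial calcium uniporter, and nudcd1. That of ryr1b was 5.03% in brain and 5.01% in muscle although its mean CPM differed 13.0-fold. Those of pkn2 were 5.92% and 5.86%, of mcu 4.79% and 4.72%, and of nudcd1 39.4% and 39.3%. Single libraries lay apart. In muscle, ryr1b had 2.33% in library 1 of 3.5 weeks and 7.14% in library 3 of 8.5 weeks. The share of pkn2 in muscle was 0% in library 1 of 3.5 weeks and 22.6% in library 3. Close shares over all libraries thus do not show equal shares at each age. In ryr1b, linear reads were 604 in brain and 4778 in muscle.

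**Figure D3:**
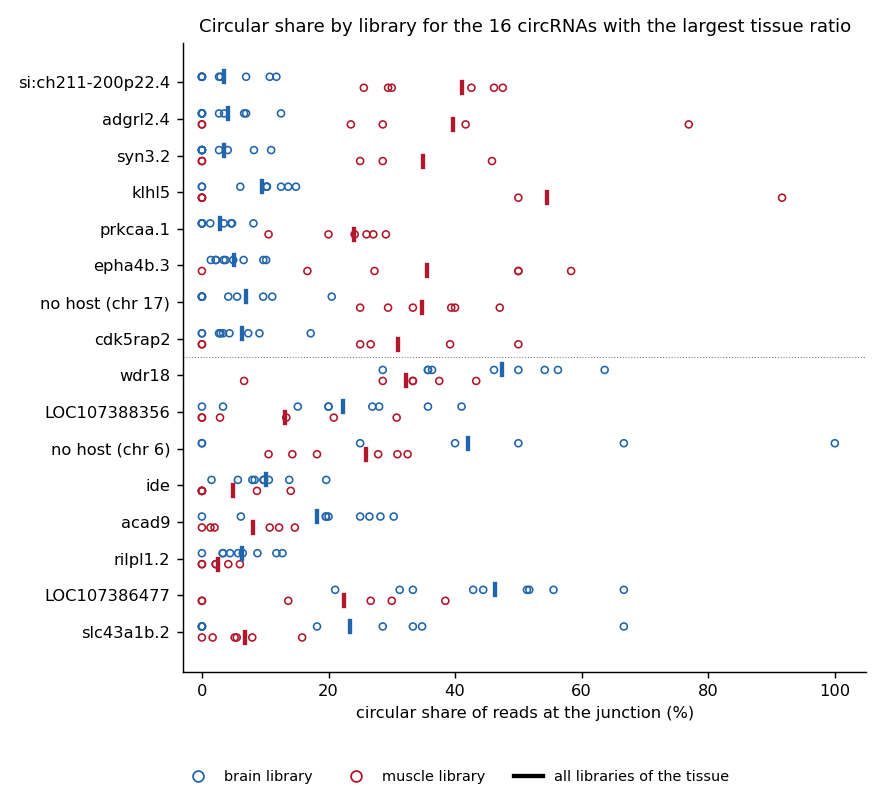
Circular share, in percent, of the 16 circRNAs with the largest ratio between tissues: open circles are single libraries with reads at the position (blue brain, red muscle) and bars the share over all libraries of the tissue. Above the dotted line muscle was higher and below it brain was; si:ch211-200p22.4, prkcaa.1 and the circRNA with no host on chromosome 17 show no overlap.

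A host with 2 members showed that loops of 1 gene need not share a value. In nup50, the longer loop had shares of 37.5% in brain and 37.1% in muscle. The shorter loop had 6.41% (4.66 to 8.57%) and 25.6% (18.0 to 34.5%), with a median and highest library of 6.06 and 13.3% in brain and a lowest, median and highest of 13.3, 23.2 and 41.4% in muscle. The loops of rmc1 stood at 24.8% and 18.5% in brain and at 42.3% and 37.7% in muscle. In jmjd1c they stood at 4.50% and 3.24% in brain and 11.9% and 18.0% in muscle, and in pcca at 2.83% and 10.7% in brain and 2.70% and 9.12% in muscle.

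Linear reads at the members' positions were not part of the choice and were compared between tissues with an edgeR quasi-likelihood test, as the mean difference over the 3 ages. With TMM factors, 97 of the 142 passed the Benjamini-Hochberg threshold, 76 higher in muscle and 21 higher in brain, beside 72.8% of all 1771 positions tested, 24.8% higher in muscle and 47.9% higher in brain. With linear totals in place of TMM the split turned over, to 21 higher in muscle and 83 higher in brain. The scaling moved the median of all positions from -0.72 to -2.19 in log2 of muscle over brain. Relative to that median, the members' median lay 1.36 higher with TMM and 1.31 higher with totals, which the requirement of reads in muscle can set. The members farthest from 0 kept their direction under both. Toward muscle these were the circRNA with no host on chromosome 6 (log2 7.01 ± 0.24 (SE), adjusted p = 1.74e-22 in edgeR), slc43a1b (5.56 ± 0.24), ryr1b (5.16 ± 0.22), filip1l (4.80 ± 0.20) and flnc (4.50 ± 0.16). Toward brain they were klhl5 (-3.31 ± 0.39, adjusted p = 4.05e-09 in edgeR), epha4b (-3.10 ± 0.23) and syn3 (-2.39 ± 0.33).

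Of the 76 members with more linear reads in muscle, the share was higher in muscle for 42. Of the 21 with more linear reads in brain it was higher in muscle for 20, and of the 45 that did not pass for 38. The share has the linear reads in its denominator, so these counts are not independent of the test. The classes are those with TMM, and no such counts are given for linear totals, where the split turned over. In the mitochondrial group, linear reads were higher in muscle for 7 of 8 members with TMM, beside 76 of 142 members and 440 of 1771 positions. With totals they were higher in muscle for 3 and in brain for 1, beside 21 and 83 of the members and 189 and 1370 of the positions. The group was made after the names were seen, and nothing is called particular to it. Its median shares were close, at 8.55% in brain and 8.57% in muscle, though its member acad9 was among the largest differences toward brain. The share was higher in muscle for 1 of 8, timmdc1, another assembly factor of complex I. All 7 members of the actin, microtubule and centrosome group had a higher share in muscle, with medians of 18.6% and 31.0%. So had 10 of 12 in membrane traffic, 18 of 22 in chromatin and transcription, 7 of 9 among kinases, phosphatases and receptors, 7 of 10 in RNA processing, 5 of 8 in ubiquitin and UFM1 ligation, 4 of 4 in adhesion and matrix, 3 of 5 among transporters and peptidases, 2 of 4 in nuclear transport and 0 of 2 in calcium release and uptake, beside 100 of all 142.

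With age, the summed share of the 142 circRNAs stood at 13.7 ± 0.708% (SD, n = 3) in brain at 3.5 weeks, 16.9 ± 2.26% at 8.5 weeks and 15.8 ± 1.39% at 14 weeks. In muscle it stood at 16.0 and 17.0% in the 2 libraries of 3.5 weeks, at 24.4 and 25.3% at 8.5 weeks and at 17.4 and 23.9% at 14 weeks. At 8.5 weeks both muscle libraries lay above all others of the tissue. The circRNAs outside the 142 stood at 0.653 and 0.662% in muscle at 3.5 weeks and at 1.80 and 1.82% at 8.5 weeks, so the order was not particular to the 142.

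Age changes of single members were tested in edgeR, with library sizes and TMM factors from the linear reads and adjustment over all circRNAs tested. The change of 8.5 against 3.5 weeks, averaged over both tissues, passed for 6 of the 142, all higher at 8.5 weeks, beside 0.781% of 896 circRNAs, or 7 in all, with 39 at an unadjusted p under 0.05 (11.2% of all). The members hold more reads than the rest, and nothing is called particular to them. Of the 6, tbck met the choice only through its muscle reads of 8.5 weeks, so its place in this count is not independent of the choice. For gulp1, on chromosome 9 from 3411254 to 3411821, the 3 brain libraries had 112, 217 and 138 CPM at 3.5 weeks and 356, 137 and 361 CPM at 8.5 weeks, and the 2 muscle libraries had 31.2 and 8.56 CPM at 3.5 weeks and 688 and 535 CPM at 8.5 weeks. The muscle libraries were far apart between the ages while the brain libraries overlapped. The mean change was 2.78 ± 0.48 in log2 (SE), with an adjusted p of 6.98e-06 in edgeR. This call held under all 22 alternatives, with adjusted p in edgeR or DESeq2 from 2.04e-06 to 0.00255.

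The other 5 calls were weaker. For mme on chromosome 7, brain had 0, 0 and 17.2 CPM at 3.5 weeks and 38.5, 24.9 and 35.2 CPM at 8.5 weeks, and muscle had 41.6 and 25.7, then 328 and 367 CPM. No library of 3.5 weeks reached 1 of 8.5 weeks in the same tissue. The fitted log2 change was 2.63 ± 0.67 (adjusted p = 0.0186 in edgeR). For nisch, which encodes nischarin, an integrin-binding protein, brain had 17.2, 54.3 and 34.5, then 125, 62.2 and 61.6 CPM, and muscle 0 and 17.1, then 147 and 258 CPM. The ages again did not overlap in either tissue, and the fitted change was 2.66 ± 0.68 (adjusted p = 0.0186 in edgeR). For tbck, a kinase-like protein with a TBC domain, brain had 77.5, 43.4 and 8.62, then 125, 112 and 106 CPM. Muscle had no read in either library of 3.5 weeks and 90.1 and 79.3 CPM at 8.5 weeks, at least 4.95-fold higher with a floor of 3 reads over the group. Its fitted change, 4.25 ± 1.13 (adjusted p = 0.0208 in edgeR), depends on how the 0 counts are treated. With 11 and 8 muscle reads at 8.5 weeks and 2 and 7 at 14 weeks, tbck met the choice only through its reads of 8.5 weeks.

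For vps35 the brain libraries overlapped, with 86.1, 21.7 and 103 CPM and then 211, 74.6 and 185 CPM, and the muscle libraries did not, with 0 and 25.7, then 131 and 307 CPM. LOC107384050 on chromosome 14 had 43.0, 10.9 and 51.7, then 96.1, 124 and 52.8 CPM in brain, and 0 and 25.7, then 221 and 169 CPM in muscle. Both had a fitted log2 change of 2.38, with SE of 0.59 and 0.63 and adjusted p of 0.0186 and 0.0208 in edgeR. In LOC107384050 the ages did not overlap in either tissue. All 5 of these calls were lost when TMM factors came from the circular reads, and when brain libraries 2 and 3 of 3.5 weeks were left out, where gulp1 alone was called. That setting leaves 1 brain library at 3.5 weeks, which is assumed to vary like the other groups. Leaving out brain library 1 of 3.5 weeks ended mme, nisch and LOC107384050, library 3 of that age tbck, library 1 of 8.5 weeks nisch, and library 2 of 8.5 weeks tbck and LOC107384050. Leaving out muscle library 1 of 3.5 weeks ended vps35, nisch, tbck and LOC107384050, library 3 of that age tbck, library 1 of 8.5 weeks tbck and LOC107384050, and library 3 of 8.5 weeks vps35 and nisch. The highest adjusted p over these alternatives in edgeR or DESeq2 was 0.242, for tbck. DESeq2 called 15 members, and a count without brain library 2 of 3.5 weeks gave 10. No share over all circRNAs stands beside these counts, and nothing is read about the members from them. At 14 weeks the mean of each of the 6 lay below its mean at 8.5 weeks in both tissues, which the choice of calls at 8.5 weeks can set. As a ratio of means, the gap in muscle ran from 81.8 against 203 CPM for nisch to 186 against 195 CPM for LOC107384050, and was not tested.

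**Figure D4:**
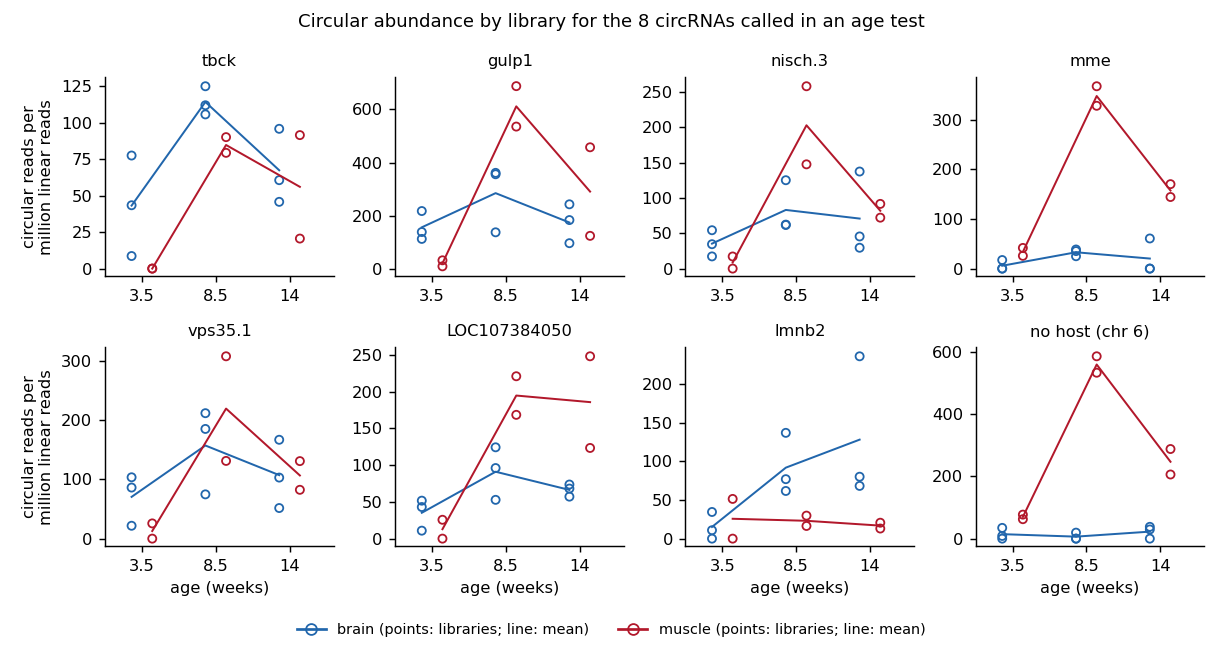
Circular abundance by library, in CPM, at 3.5, 8.5 and 14 weeks for the 8 circRNAs called in any age test; blue is brain, red is muscle, points are libraries and lines join the means of each age. In the first 6, called for the mean of both tissues, the muscle libraries of 8.5 weeks lie above those of 3.5 weeks; lmnb2 was called in brain and the circRNA with no host on chromosome 6 in muscle.

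Within tissues few calls were made. In brain, 0 of the 142 passed at 8.5 against 3.5 weeks, beside 0.156% of 639 circRNAs, with 19 at an unadjusted p under 0.05 in edgeR (9.39% of all), all higher at 8.5 weeks, and DESeq2 also called 0. At 14 against 3.5 weeks 1 passed, beside 0.156% of 639, with 12 at an unadjusted p under 0.05 (9.86% of all). This was lmnb2, the nuclear lamina protein lamin B2, with 0, 10.9 and 34.5 CPM at 3.5 weeks, 76.9, 137 and 61.6 CPM at 8.5 weeks and 68.2, 236 and 80.1 CPM at 14 weeks. All later libraries lay above all of 3.5 weeks, and the fitted log2 change to 14 weeks was 2.95 ± 0.74 (adjusted p = 0.0440 in edgeR). It was lost under 8 of 16 alternatives, DESeq2 among them, and by leaving out brain library 1 or 2 at 3.5 weeks, library 2 at 8.5 weeks or library 2 at 14 weeks. In muscle lmnb2 had 0 and 51.4, then 16.4 and 29.7, then 20.6 and 13.1 CPM.

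In muscle 2 of the 142 passed at 8.5 against 3.5 weeks, beside 1.37% of 292 circRNAs, with 23 at an unadjusted p under 0.05 in edgeR (17.8% of all). They were gulp1, with a log2 change of 4.50 ± 0.84 (adjusted p = 0.0173 in edgeR), and the circRNA with no host on chromosome 6, with 2.56 ± 0.57 (adjusted p = 0.0448 in edgeR). The latter had 62.4 and 77.0 CPM at 3.5 weeks, 532 and 585 CPM at 8.5 weeks and 206 and 288 CPM at 14 weeks. Each age stood apart from the others. Leaving out library 1 or 3 of 8.5 weeks, or library 2 of 14 weeks, left 0 calls. Leaving out library 3 of 3.5 weeks gave 14, library 1 of 3.5 weeks gave 10, and library 1 of 14 weeks gave 3. With 2 libraries an age, these calls rest on few values. The counts without single libraries, and those by DESeq2, have no share over all circRNAs beside them, and nothing is read about the members from them. At 14 against 3.5 weeks 0 members passed in muscle, beside 0.342% of 292, with 14 at an unadjusted p under 0.05 in edgeR (8.9% of all) and 1 call by DESeq2. For the mean of both tissues at 14 against 3.5 weeks 0 passed, beside 0.0% of 896, with 30 at an unadjusted p under 0.05 in edgeR (6.81% of all) and 4 calls by DESeq2.

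Most fitted changes did not pass a test, and their signs are given as a description. Members that reached 10 reads through a single age add to these counts. An example is hnrnph1, with 6 and 6 muscle reads at 3.5 weeks and 0 in the later muscle libraries. At 8.5 weeks the change was above 0 in brain for 95 of the 142, in muscle for 93 and in both for 68, and below 0 in both for 22, with medians of 0.40 in brain and 0.73 in muscle, beside 0.47 and 1.23 over all circRNAs tested. At 14 weeks these counts were 51 and 27, with 88 above 0 in brain and 78 in muscle, and medians of 0.24 and 0.22, beside 0.34 and 0.74. Single libraries moved the medians. At 14 weeks the muscle median was -0.062 without library 2 of 14 weeks, 0.10 and 0.14 without libraries 1 and 3 of 8.5 weeks, and 0.57 and 1.06 without libraries 1 and 3 of 3.5 weeks, while the brain median was 0.085 without library 2 of 14 weeks. At 8.5 weeks the muscle median was 1.26 and 1.37 without libraries 1 and 3 of 3.5 weeks, and the brain median was 0.23 without library 3 of 8.5 weeks. Without brain libraries 2 and 3 of 3.5 weeks the brain medians were 0.65 and 0.36. With TMM factors from the circular reads the abundance medians of the members were 0.03 and -0.02 in brain and 0.48 and 0.34 in muscle. Such factors center the circular changes themselves, so these medians cannot tell what the rises in brain rest on. The fitted change of the circular share in brain was above 0 for 98 members at 8.5 weeks and 90 at 14 weeks. Its medians were 0.425 and 0.275. Over all 639 circRNAs tested it was above 0 for 414 and 394, with medians of 0.405 and 0.313. The Pearson correlation of the fitted changes in brain and muscle was 0.24 at 8.5 weeks and 0.13 at 14 weeks.

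**Figure D5:**
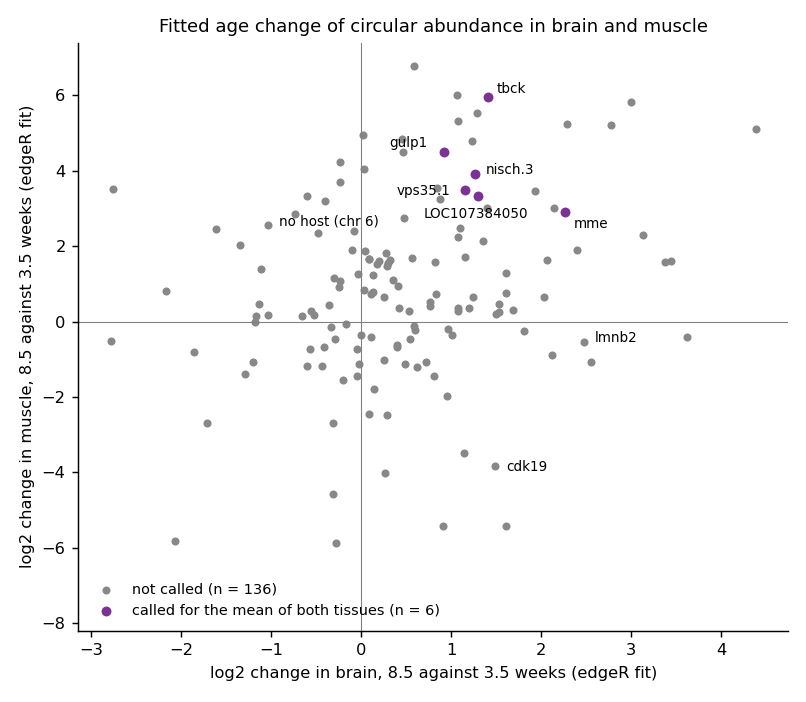
Fitted log2 change of circular abundance from 3.5 to 8.5 weeks in brain (x axis) and muscle (y axis) for each of the 142 circRNAs, from separate edgeR fits; purple points were called for the mean of both tissues. The cloud is loose, with 68 circRNAs above 0 in both tissues, and the 6 called ones lie among those.

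Whether the change with age differed between tissues was tested as a difference of changes over the 15 libraries. At 8.5 against 3.5 weeks 0 members passed, beside 0.0% of 896, with 22 at an unadjusted p under 0.05 in edgeR (6.58% of all) and 0 calls by DESeq2. The smallest adjusted p was that of gulp1, 0.0935 in edgeR, with a change 3.79 ± 0.98 larger in muscle in log2. Without brain libraries 2 and 3 of 3.5 weeks the smallest adjusted p was 0.515 in edgeR. The fitted change of si:ch211-200p22.4 was 4.12 ± 1.29 larger in muscle (adjusted p = 0.417 in edgeR), with 62.4 and 85.6 CPM at 3.5 weeks and 541 and 575 CPM at 8.5 weeks in muscle, and 7 and 2 circular reads over the brain libraries of those ages. That of cdk19 leaned the other way, by -5.22 ± 1.83 (adjusted p = 0.575 in edgeR), but its muscle reads at 3.5 weeks were all in library 1, and without it the fitted difference was 1.65. In muscle cdk19 had 11 circular reads at 3.5 weeks, 1 at 8.5 weeks and 0 at 14 weeks. It thus met the choice only through 3.5 weeks, which can set a fall in muscle, and no direction is read from it. At 14 weeks 0 members passed, beside 0.0% of 896, with 19 at an unadjusted p under 0.05 in edgeR (5.47% of all) and 0 calls by DESeq2. A difference that misses the threshold does not show that the tissues changed alike.

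The circular share of single members changed with age in no test that passed. In brain 0 of the 142 passed at 8.5 weeks, beside 0.0% of 639, and 0 at 14 weeks, beside 0.0%, with 11 (6.57% of all) and 10 (8.14% of all) at an unadjusted p under 0.05 in edgeR and 0 and 0 calls by DESeq2. In muscle 0 passed at 8.5 weeks, beside 0.342% of 292, and 0 at 14 weeks, beside 0.0%, with 11 (15.4% of all) and 13 (11.0% of all) at an unadjusted p under 0.05 in edgeR and 1 and 0 calls by DESeq2. For the mean of both tissues it was 0 at each age, beside 0.0% of 896, with 24 (6.81% of all) and 19 (3.91% of all) at an unadjusted p under 0.05 in edgeR and 0 calls by DESeq2. For the difference between tissues it was 0 at each age, beside 0.0% of 896, with 5 (3.01% of all) and 9 (2.68% of all) at an unadjusted p under 0.05 in edgeR and 0 calls by DESeq2. Among the smallest p in muscle at 8.5 weeks were those of mme, with a fitted share change of 3.62 ± 1.31 in log2, and ryr1b, with 2.43 ± 0.89, both at an adjusted p of 0.196 in edgeR. In brain lmnb2 was among them, with 3.10 ± 0.95 at 8.5 weeks (adjusted p = 0.597 in edgeR) and 3.35 ± 0.92 at 14 weeks (adjusted p = 0.344 in edgeR).

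The authors' deposited table of p-values, which are not labelled as adjusted and compare neighbouring ages, listed 91 of the members for adult against young brain, 17 of them under 0.05, beside 14.7% of the 251 circRNAs listed. The authors' deposited table for adult against young muscle listed 103 with a value, 21 of them under 0.05, beside 25.4% of 228. For old against adult the authors' deposited table gave 8 of 98 in brain, beside 6.08%, and 7 of 112 in muscle, beside 7.11%. The deposited test is named bbTest_linear. Its p-values may concern the circular share and not abundance, so they are no check on the abundance calls above. In the authors' deposited table for adult against young muscle, mme had 0.000130, the circRNA with no host on chromosome 6 0.00135, tbck 0.0109, vps35 0.0329, gulp1 0.0686, LOC107384050 0.354, lmnb2 0.444 and nisch 0.597. In the authors' deposited table for adult against young brain, lmnb2 had 0.00603, nisch 0.0229, gulp1 0.0354, tbck 0.0417, vps35 0.0499 and LOC107384050 0.537, and the other 2 called members had no value.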

How the data were processed

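RNA was measured in 15 libraries of brain and muscle at 3 ages. Per the labels' protocols, RNA came from frozen tissue by Trizol and was depleted of ribosomal RNA, with a kit for human, mouse and rat, before stranded paired-end sequencing. STAR 2.5.2b is named in the submitters' processing notes, and the deposited raw counts of circular and linear reads carry the name of its chimeric junction output per the file headers. What called the circles, on which genome build and annotation, and what counts as a linear read is not given in the sources used here. The authors deposited p-values of neighbouring ages (young, adult and old), whose test, per the file headers, was bbTest. The count tables held 0 columns of other samples.

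Members were the positions with 10 or more circular reads in each tissue. The members, gene lists and tests were chosen with earlier results of these data known, and the host roles were grouped after the host names were seen. Libraries were scaled by their linear totals with TMM factors, and circRNAs with 10 or more reads in the fitted libraries were tested with edgeR 4.0.16 in R 4.3.3 (quasi-likelihood test, two-sided), with Benjamini-Hochberg adjustment over all of them at 0.05. Each tissue was fitted alone, and all 15 libraries together for the mean and the difference of both tissues. Share tests used circular and linear counts as paired columns with a library term, so their log2 changes are of the circular to linear ratio. The model was checked on simulated counts with a fixed spread, which need not match that of these libraries. The check says little about error rates at the counts here. DESeq2 1.42.0, no filter but the presence of a read, a minimum of 30 reads, other scalings, a replicate block and leaving out each library were alternatives. Leaving out brain libraries 2 and 3 of 3.5 weeks was added after seeing the data. Named members were the extremes of abundance, share, their tissue ratios and linear reads, the called, the 3 smallest p of a test without calls, and hosts with 2 members. Replicate libraries differed beyond sampling noise in every pair (largest chi-square p = 1.44e-06). Linear totals of 76515 to 135698 reads and circular totals of 1343 to 4400 limit precision, and intervals and floors cover counting error only. Host names missing in the files were taken from a RefSeq table of assembly NfurGRZ-RIMD1, for names alone.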

Additional observations from a re-analysis of the deposited data

How the results depend on the processing

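Counts of called members depended on the fit, and the cause was not tested. They are counts of members alone, with no share over all circRNAs beside them, and do not show whether members differed from the rest. For abundance at 8.5 against 3.5 weeks, the 2 calls in muscle became 5 with a minimum of 30 reads, 15 with DESeq2, 9 with the replicate block, 4 with TMM factors of the circular reads and 0 to 14 when single libraries were left out. The 6 calls for the mean of both tissues became 12, 15 and 1 with the minimum of 30, DESeq2 and circular TMM, 4 to 10 without single libraries, and 1 without brain libraries 2 and 3 of 3.5 weeks, which leaves 1 library in that group. The 0 calls in brain became 0 to 1 without single libraries, and the 0 for the difference between tissues became 1 with circular TMM. For abundance at 14 against 3.5 weeks, the 1 call in brain became 0 with no filter, DESeq2, the replicate block and circular TMM, and 0 to 1 without single libraries. The 0 calls in muscle became 1 with no filter, 1 with DESeq2, 1 with circular TMM and 0 to 3 without single libraries. For the mean they became 4 with DESeq2 and 0 to 2 without single libraries, and for the difference 1 with circular TMM and 0 to 1 without single libraries. For share, a minimum of 30 reads gave 1 call in brain at 14 weeks, 3 and 1 in muscle at 8.5 and 14 weeks, and 5 for the mean at 8.5 weeks, and DESeq2 gave 1 in muscle at 8.5 weeks.

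The median log2 ratio of abundance, 0.15, became 1.66 with TMM factors of the linear counts and ran from -0.22 to 0.20 without single libraries, among them -0.00568. The fitted difference of cdk19 at 8.5 weeks ran from -8.29 to 1.65 without single libraries and was -9.43 without brain libraries 2 and 3 of 3.5 weeks. Of the other values, 759 kept direction and side of the threshold, 27 passed it newly and 40 lost it. Replicate numbers were not treated as pairs, since the labels do not say whether a number marks 1 fish. Deviations of same-numbered libraries correlated at -0.0694 to 0.0663 across ages in brain, where 4 of 9 libraries were closest to a same-numbered one. Between brain and muscle of 1 age they correlated at -0.0678 to 0.0232. With 2 muscle libraries an age the muscle deviations mirror each other, so a check within muscle says nothing and one against muscle cannot decide on pairs. The check across ages does not bear on brain and muscle of 1 age. If a number did mark 1 fish, the tests over all 15 libraries would treat linked libraries as independent. With the replicate block the other counts of calls stayed within 1.5 times, while members at an unadjusted p under 0.05 fell from 14 to 6 for muscle abundance at 14 weeks, from 11 to 2 and 13 to 2 for muscle share at 8.5 and 14 weeks, from 19 to 12 for the difference in abundance at 14 weeks and from 5 to 3 for the difference in share at 8.5 weeks. Members with few reads, a median of 35.5 in brain and 22 in muscle, and 2 muscle libraries an age limit what could be called.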
